A study of Mus musculus with 5 samples.

Results

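The genes described here are the secreted R-spondins Rspo1, Rspo2 and Rspo3, their receptors Lgr4, Lgr5 and Lgr6, and the membrane ubiquitin ligases Rnf43 and Znrf3 on which they act. They were taken by symbol, and all 8 had a row among the 34590 gene symbols of the series. The list is a family defined by role, but it was selected on the measured medial to lateral differences of these same 5 libraries, with earlier results for them known. Differences of these 8 genes between the regions are therefore given as a description with no p-value. Brains of untreated wildtype mouse embryos of a mixed strain background were dissected at E14.5, and the groups were medial cortex (3 libraries) and lateral cortex (2 libraries). RNA was sequenced as polyadenylated, unstranded libraries, and nothing in the labels says whether the libraries came from separate embryos, so spread and p-values measure only the variation between these samples.

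In canonical Wnt signalling a Wnt ligand engages a Frizzled receptor and an Lrp co-receptor, and beta-catenin then acts with Tcf/Lef factors on target genes. Rnf43 and Znrf3 remove Frizzled receptors from the cell surface by ubiquitination. An R-spondin bound to an Lgr receptor draws these ligases off the membrane, so that more Frizzled remains and the cell responds more strongly to Wnt. Both ligases are themselves induced by Wnt signalling in many tissues and act as feedback inhibitors. In the embryonic telencephalon the cortical hem, at the medial edge of the cortex, secretes Wnt and BMP proteins and patterns the neighbouring hippocampal primordium.

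Promoter sequences were available for 4 of the 8 genes (Rspo1, Lgr4, Lgr6 and Rnf43, the last with 2 start sites) in RefSeq's annotation of GRCm38.p6, a later build than the mm9 named for the counts. The 250 bases before the annotated start are shown for Rspo1 and Rnf43, a ligand and a ligase with large regional differences, and for Lgr4, the receptor with the most reads. Each is written 5′ to 3′ on the strand of the gene, with CG dinucleotides in capitals.
Rspo1 (chr4:124986180-124986429, plus strand): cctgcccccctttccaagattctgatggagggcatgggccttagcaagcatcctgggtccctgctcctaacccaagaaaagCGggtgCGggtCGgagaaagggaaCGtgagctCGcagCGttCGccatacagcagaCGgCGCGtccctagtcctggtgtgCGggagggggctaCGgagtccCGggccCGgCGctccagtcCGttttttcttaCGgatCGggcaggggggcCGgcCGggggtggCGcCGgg
Rnf43, first start (chr11:87662837-87663086, plus strand): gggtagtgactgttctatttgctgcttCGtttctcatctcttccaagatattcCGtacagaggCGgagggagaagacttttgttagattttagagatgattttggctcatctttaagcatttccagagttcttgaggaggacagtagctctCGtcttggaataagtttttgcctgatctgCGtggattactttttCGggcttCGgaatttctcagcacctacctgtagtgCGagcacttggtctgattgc
Rnf43, second start, inside the gene (chr11:87699647-87699896, plus strand): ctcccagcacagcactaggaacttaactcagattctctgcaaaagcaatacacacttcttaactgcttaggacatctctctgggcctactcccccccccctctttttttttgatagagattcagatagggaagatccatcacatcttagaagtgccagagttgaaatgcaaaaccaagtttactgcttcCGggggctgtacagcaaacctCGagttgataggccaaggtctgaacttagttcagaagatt
Lgr4 (chr2:109917397-109917646, plus strand): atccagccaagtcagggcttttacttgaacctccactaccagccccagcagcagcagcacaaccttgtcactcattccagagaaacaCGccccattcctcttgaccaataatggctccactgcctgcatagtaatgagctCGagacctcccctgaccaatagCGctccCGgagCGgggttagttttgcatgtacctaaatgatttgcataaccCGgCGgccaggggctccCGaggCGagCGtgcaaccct
The Rspo1 window held 22 CG dinucleotides and the Lgr4 window 10, against 8 and 2 in the first and second Rnf43 windows and a median of 6 over 32851 windows of the same length. G and C made up 66.8% of the Rspo1 window, 55.6% of the Lgr4 window and 44.4% and 45.2% of the Rnf43 windows, with a median of 52.4% over all windows. Words bound by Tcf/Lef factors, which differ only in their last 2 letters, were searched on both strands, namely the word CTTTGAA, the word CTTTGAT, the word CTTTGTA and the word CTTTGTT. None of the 5 windows of these genes, Lgr6 included, held any of them, whereas 14.8% of all windows held at least 1. For CTTTGAT alone that share was 3.21%. These counts say only that the letters do not stand in these windows.

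The medial libraries held 27406370 to 36460274 reads in genes and the lateral ones 56147129 to 66981952, so that depth differed with region. Levels are given as CPM, counts scaled to a fixed library size after TMM normalisation, and 3 reads corresponded to between 0.0456 and 0.105 CPM. A log2 fold change compares medial with lateral cortex, positive where medial is higher, and its standard error (SE) comes from the edgeR fit. Medial library 1 stood apart from the other libraries. Its summed level of 9 meningeal marker genes was 306 CPM, against 15.2 to 20.8 CPM in the other medial and 15.3 to 24.9 CPM in the lateral libraries, and 7 of the 9 exceeded each other library by 2-fold or more. Foxc1 and Foxd1, the transcription factors of that list, were not among these 7. Its summed level of 10 cortical hem markers was 274 CPM, against 95.7 and 112 CPM in the other medial and 5.26 to 6.33 CPM in the lateral libraries. Of the hem genes 7 of 10 exceeded each other library by 2-fold or more in it. Outside the marker lists, the hedgehog response genes Gli1 and Ptch1 were also high in it. Gli1 had 42.4 CPM in medial library 1 and 0.245 to 0.799 CPM in the others. Ptch1 had 181 CPM against 9.09 to 21.9 CPM. What this difference contributes to the levels below was not tested. Choroid plexus markers (8 genes) summed to 18.3 CPM in medial library 1, of which Otx2 made up 12.8 CPM. They summed to 9.48 and 15.8 CPM in the other medial and to 2.66 and 13.2 CPM in the lateral libraries. Ttr had its lowest value in medial library 1 (0.659 CPM) and its highest in lateral library 2 (10.4 CPM). Cajal-Retzius cell markers (7 genes) summed to 521 to 626 CPM in the medial and 163 to 200.1 CPM in the lateral libraries. No gene of these lists was at 0 in every library. Cortical neuron markers (6 genes) summed to 1136 CPM in medial library 1 and to 1691 and 2012 CPM in the other medial libraries. In the lateral libraries they summed to 2900 and 3759 CPM. Radial glial markers (9 genes) summed to 3774, 3265 and 3082 CPM in the medial and to 2438 and 2076 CPM in the lateral libraries. Markers of GABAergic neurons (7 genes) summed to 4.65, 2.52 and 15.6 CPM in the medial and to 61.9 and 89.2 CPM in the lateral libraries. In whole tissue, fewer cells of a type and less RNA per cell cannot be told apart.

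**Figure D1:**
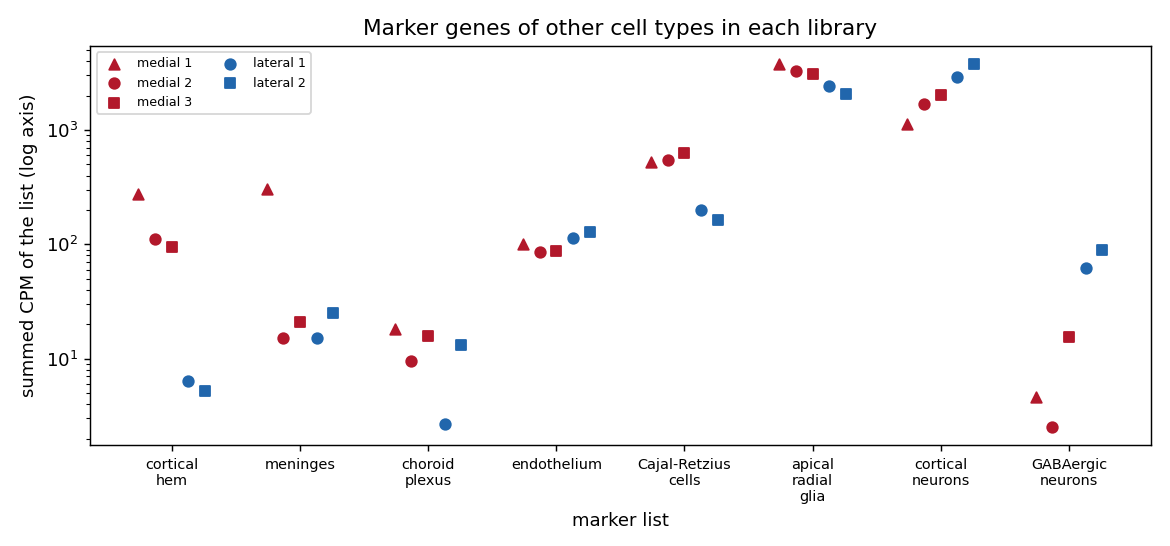
Summed CPM (log axis) of marker genes listed for 8 tissues or cell types, with 1 point per library, red for medial and blue for lateral. Medial library 1 (triangle) reached 306 CPM for meningeal genes where the other libraries stayed at 24.9 CPM or below.

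Rspo1 and Rspo2 were found almost entirely in medial cortex, and Rspo3 was abundant in both regions. Rspo1 had 20.5, 11.9 and 8.87 CPM in medial libraries 1 to 3 and 0.0912 and 0.111 CPM in the lateral libraries. The groups did not overlap, and the lateral values rested on 6 reads in each library against 592, 339 and 319 medial reads. The log2 fold change was 7.05 (SE 0.63), and the pooled reads gave a 133-fold ratio (95% exact interval 76.1 to 259, counting error only). Both Rspo1 and Rspo2 separated the regions as the hem marker sum did, and the part of hem cells in these levels was not tested.

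Rspo2, the second ligand with this pattern, had 48.7, 15.1 and 12.8 CPM in the medial and 0.198 and 0.260 CPM in the lateral libraries. Medial library 1 was 3.21-fold above the next highest library, and the lowest medial library was still far above both lateral libraries, which had 13 and 14 reads. Its log2 fold change was 6.80 (SE 0.95) and was 5.93 without medial library 1, the largest shift that leaving out a single library gave among the 6 genes with a fitted value. Rspo1 moved less, to 6.65. Among 16229 genes tested, Rspo1 ranked 3 and Rspo2 ranked 5 by log2 fold change toward medial cortex. Both were selected on this contrast and passed the filter only through medial libraries, so nothing is read from these ranks.

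Rspo3, the most abundant of the ligands, had 84.5, 35.7 and 32.5 CPM in the medial and 31.0 and 36.2 CPM in the lateral libraries. Medial library 1 alone was high, and medial libraries 2 and 3 lay between the lateral values, so the groups overlapped. The log2 fold change was 0.60 (SE 0.43) with all libraries and 0.02 without medial library 1. That library had the highest sums of meningeal and hem markers, and what this contributes to the Rspo3 level was not tested. Endothelial markers (8 genes) summed to 101 CPM in medial library 1, to 86.0 and 88.0 CPM in the other medial and to 114 and 128 CPM in the lateral libraries. Over 404 of the 3090 exon bases of Rspo3 lies an exon of an annotated antisense gene, Gm48159, and reads there cannot be told apart because the libraries do not mark strand. Rspo4, the remaining R-spondin, had 2 reads in lateral library 2 and 0 reads in each other library, where 0 reads leave room for at most 0.0456 to 0.105 CPM.

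**Figure D2:**
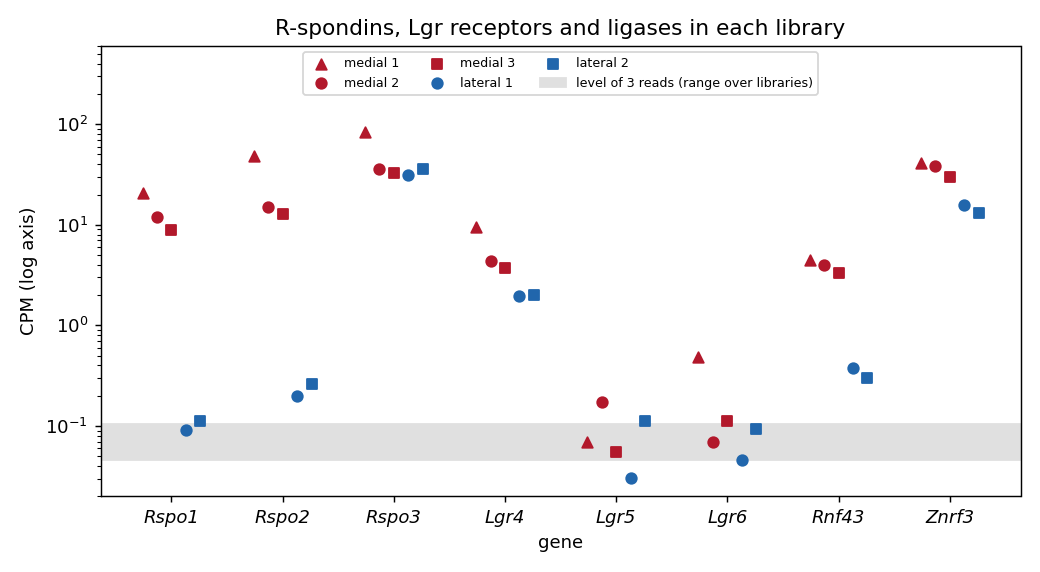
CPM (log axis) of the 8 genes in each library, red for medial and blue for lateral, with the grey band marking the level of 3 reads. Rspo1, Rspo2, Rnf43, Lgr4 and Znrf3 do not overlap between the regions, with the widest gaps for Rspo1, Rspo2 and Rnf43. Rspo3 is high in medial library 1 only. Lgr5 and Lgr6 lie near the level of 3 reads except for Lgr6 in medial library 1 (0.486 CPM).

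The make-up of the R-spondin reads therefore differed by region while Rspo3 remained the largest part in every library. Rspo3 made up 55.0%, 56.9% and 60.0% of R-spondin reads in medial libraries 1 to 3, and 99.1% and 98.9% in the lateral libraries. Rspo1 contributed 13.4%, 18.9% and 16.4% of the medial and 0.291% and 0.304% of the lateral R-spondin reads, and Rspo2 contributed 31.7%, 24.2% and 23.7% of the medial and 0.631% and 0.710% of the lateral ones. Rspo2 reads exceeded Rspo1 reads 2.37-fold in medial library 1 and 1.28-fold and 1.45-fold in medial libraries 2 and 3.

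**Figure D3:**
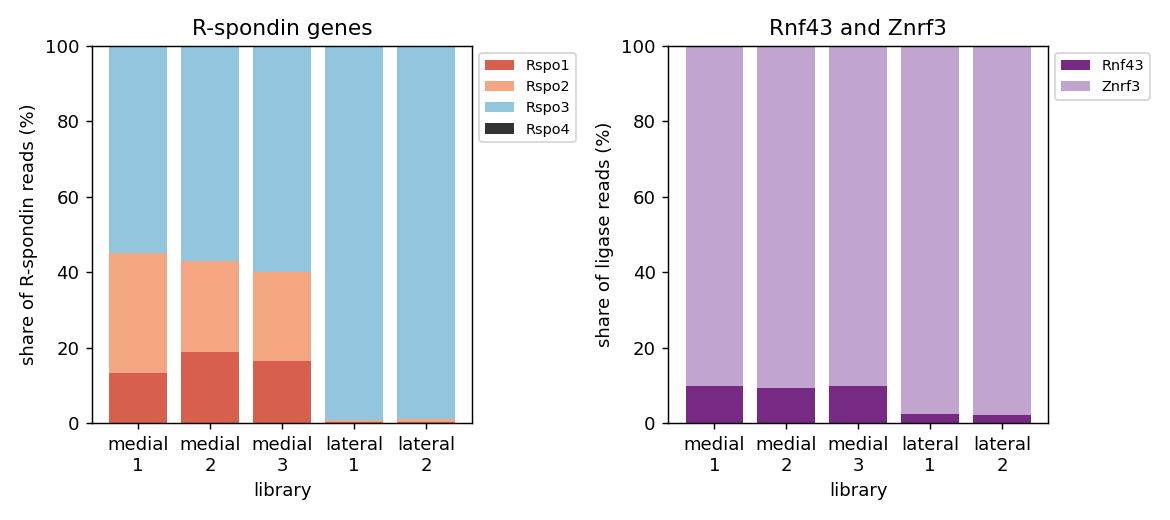
Share of reads (%) taken by each R-spondin gene and by each of the 2 ligases in every library. Rspo3 fills 55.0% to 60.0% of the medial and 98.9% or more of the lateral R-spondin bars, and Rnf43 fills 9.38% to 9.89% of the medial and 2.20% to 2.38% of the lateral ligase bars.

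Of the receptors, Lgr4 was the only one well above the detection floor, and its level was low. Lgr4, a widely expressed R-spondin receptor, had 9.51, 4.37 and 3.73 CPM in the medial and 1.96 and 2.02 CPM in the lateral libraries. All medial libraries were above both lateral ones, with medial library 1 2.17-fold above the next highest. The log2 fold change was 1.55 (SE 0.45) and 1.02 without medial library 1. What the high meningeal and hem marker sums of that library contribute to the Lgr4 level was not tested. Lgr4 supplied between 90.8% and 96.3% of all Lgr reads in every library, and the lateral libraries had both the lowest and the highest of these shares.

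Lgr5, known as a stem cell marker in intestine and other epithelia, had 2, 5 and 2 reads in the medial and 2 and 6 reads in the lateral libraries. These counts overlap, and the pooled ratio of 1.44 had an exact 95% interval from 0.494 to 4.29, so no regional difference was detectable at this depth. Lgr6, the third receptor, had 14, 2 and 4 medial and 3 and 5 lateral reads. The high value came from medial library 1 (0.486 CPM). Medial library 2 (0.0699 CPM) lay between the lateral libraries (0.0456 and 0.0929 CPM) and medial library 3 (0.111 CPM) just above them, so the groups overlapped. The pooled Lgr6 reads, 20 medial and 8 lateral, gave a ratio of 3.20 (95% exact interval 1.35 to 8.41, counting error only), with 14 of the 20 from medial library 1. The filter on low counts left both genes out of the fit.

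Both ligases were higher in each medial library than in either lateral library, with Rnf43 much lower in level and more unequal between the regions than Znrf3. Rnf43 had 4.51, 3.99 and 3.28 CPM in the medial and 0.380 and 0.297 CPM in the lateral libraries. Its log2 fold change was 3.50 (SE 0.29), with medial library 1 only 1.13-fold above the next highest library. Znrf3 had 41.3, 38.5 and 29.9 CPM in the medial and 15.6 and 13.2 CPM in the lateral libraries, and its log2 fold change was 1.34 (SE 0.17). Neither gene shared the marked excess of medial library 1 seen for Rspo2, Rspo3 and Lgr4, and without that library their log2 fold changes were 3.39 and 1.25. Rnf43 made up 9.86%, 9.38% and 9.89% of the reads of the 2 ligases in the medial libraries and 2.38% and 2.20% in the lateral ones.

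By the edgeR quasi-likelihood test at an adjusted p of 0.05, 4 of the 8 genes (Rspo1, Rspo2, Rnf43 and Znrf3, of 6 kept by the filter) passed as higher in medial cortex and 0 as lower, where 9.72% of all genes tested passed, 4.62% as higher and 5.1% as lower. The groups did not overlap, with medial higher, in 5 of the 8 genes, against 26.5% of all genes tested (53.3% in either direction). Medial library 1 was at least 2-fold above each other library in 4 of the 8 genes (Rspo2, Rspo3, Lgr4 and Lgr6) and in 2.29% of all genes tested. Lgr5 and Lgr6 were not among the genes tested, so the shares over all genes tested are not like for like with counts of 8. Because the genes were listed with this contrast in view, nothing is read from these counts. A call depended on single libraries here as across all genes: 0 of the 8 passed without medial library 2, lateral library 1 or lateral library 2, when 0, 18 and 0 of all genes passed in edgeR and 4036, 4050 and 2456 had an unadjusted p under 0.05. Without medial library 1, 5 passed, Lgr4 being added. The log2 fold changes were positive in all 6 fitted genes in each of these fits.

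**Figure D4:**
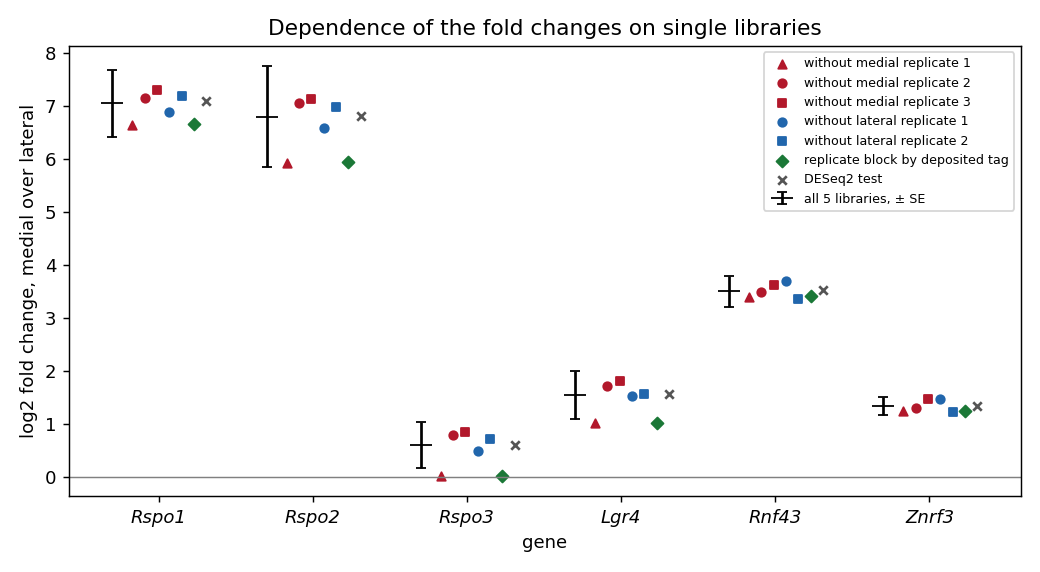
Log2 fold change (medial over lateral) of the 6 fitted genes with all libraries (bar, ± SE), without each library in turn, with a block by the tag in the deposited names, and with DESeq2. Rspo3 is at 0.02 and Lgr4 at 1.02 without medial library 1, while Rnf43 stays between 3.35 and 3.70 and Znrf3 between 1.23 and 1.47 with any 1 library left out.

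Medial libraries 2 and 3 share a tag in their deposited names with lateral libraries 1 and 2, respectively, and the 2 ratios within tags are given for each gene. On the log2 scale Rspo1 differed by 7.02 and 6.32 within the tags, Rspo2 by 6.26 and 5.62, Rnf43 by 3.39 and 3.47, Znrf3 by 1.31 and 1.18 and Lgr4 by 1.16 and 0.88. Rspo3 gave 0.20 and −0.16, which differ in sign. The labels do not say what the tag stands for.

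Levels of different genes were compared per kilobase, using the union of annotated exons in GENCODE M21 (GRCm38), which approximates the gene models behind the counts. Rspo3 was first in all 5 libraries, at 16.5 CPM per kilobase ± 9.44 (SD, n = 3 medial libraries) and 10.9 ± 1.19 (SD, n = 2 lateral libraries). In medial cortex Rspo1 followed at 7.10 ± 3.13 and Znrf3 at 4.63 ± 0.751 CPM per kilobase, and Rspo2 had 9.52, 2.96 and 2.51 in medial libraries 1 to 3. The SD ranges of these 3 neighbours overlapped, as did those of Lgr4 at 0.997 ± 0.538 and Rnf43 at 0.599 ± 0.0940, which came next. By exon union Lgr4 was above Rnf43 in each medial library. In lateral cortex Znrf3 was second at 1.82 ± 0.210 followed by Lgr4 at 0.339 ± 0.00755 CPM per kilobase. The SD ranges of Rspo1 (0.0523 ± 0.00737), Rnf43 (0.0516 ± 0.00895) and Rspo2 (0.0448 ± 0.00862) overlapped there. Lgr5 and Lgr6 had at most 0.0709 CPM per kilobase in any library. With the length of the longest transcript in place of the exon union, Rspo3 stayed first in every library, and the order changed only among the near neighbours just named and among genes near the level of 3 reads.

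Summed by role, the ligands stood well above their receptors in RNA level in both regions. The 3 R-spondins together reached 28.0, 26.8 and 26.9 times the summed Lgr level per kilobase in the medial and 29.5 and 32.1 times in the lateral libraries. This ratio varied little between libraries, although the summed R-spondin level itself ranged from 10.1 to 47.5 CPM per kilobase. The summed ligase level was 3.49, 7.13 and 6.55 times that of the receptors in the medial and 5.92 and 4.67 times in the lateral libraries, with the lowest value in medial library 1.

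The genes whose pattern over the 5 libraries lay closest to each of the 6 fitted genes were sought among 13801 genes with a mean of at least 1 CPM. Likeness was the root mean square difference of log2 CPM after each gene was centred on its mean, so 0 would be an identical pattern. Closest to Rspo1 were Lect1, which encodes a cartilage glycoprotein (0.387), the matrix proteoglycan gene Prelp (0.439) and the hem ligand gene Wnt3a (0.483). Closest to Rspo2 were Wnt3a (0.284), Lect1 (0.444) and Lox, a collagen cross-linking enzyme (0.481). Wnt3a had 11.9, 3.81 and 2.95 CPM in the medial and 0.0304 and 0.0743 CPM in the lateral libraries, so that medial library 1 was highest, as for Rspo2. Reads of Lect1 numbered 282 in medial and 1 in lateral cortex, a 361-fold ratio (95% exact interval 64.3 to 14319).

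The other 4 genes had nearer neighbours. Rspo3 lay closest to Gm13139 (0.053), the glial glutamate transporter gene Slc1a3 (0.065) and Fbxo44 (0.065), which all exceeded each other library by 2-fold or more in medial library 1. Slc1a3 had 289, 120 and 97.9 CPM in the medial and 99.4 and 116 CPM in the lateral libraries. Lgr4 lay closest to Plxdc2 (0.016), the forkhead factor gene Foxo1 (0.095) and Kctd12b (0.098). Rnf43 lay closest to 2610018G03Rik (0.112), the BMP ligand gene Bmp7 (0.123) and the proprotein convertase gene Pcsk6 (0.263), and Znrf3 to the imprinted gene Zdbf2 (0.030), Iqcg (0.038) and the semaphorin co-receptor gene Nrp2 (0.048). Bmp7 had 18.6, 17.9 and 15.2 CPM in the medial and 1.75 and 1.19 CPM in the lateral libraries, without an excess in medial library 1, as for Rnf43.

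The surrounding Wnt pathway was described with 85 listed genes, of which 69 passed the filter. By edgeR, 18 were higher and 2 lower in medial cortex, where 4.62% and 5.1% of all genes tested were, and their median log2 fold change was 0.22 against 0.01 over all genes tested. Without medial library 1 the counts were 21 and 7. In edgeR 0 were higher without medial library 2 or lateral library 2, and 1 was higher without lateral library 1. The lists were chosen with earlier results of these data known. Some listed genes, such as Wnt8b, Wif1 and Sp5, passed the filter only through medial libraries and could hardly count as lower.

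Among the ligands that R-spondins potentiate, 6 of 10 tested Wnt genes of 19 listed were higher and 1 lower, with a median log2 fold change of 4.04. Wnt2b, Wnt3a, Wnt8b, Wnt9a and Wnt10a passed the filter only through medial libraries, with at most 0.241 CPM in the lateral ones. The count and the median therefore lean toward medial cortex. Wnt5a, a ligand of the hem, had 87.7, 46.9 and 46.1 CPM in the medial and 3.65 and 3.47 CPM in the lateral libraries. Its log2 fold change was 4.08 (SE 0.37, edgeR adjusted p = 0.0234), and the groups did not overlap. Wnt9a differed by 4.01 (SE 0.46, edgeR adjusted p = 0.0263) and Wnt2b by 5.73 (SE 0.82, edgeR adjusted p = 0.0296), the latter ranging from 4.79 without lateral library 1 to 7.66 without lateral library 2. Wnt10a, which passed as well, had 71 medial and 2 lateral reads, a 45.5-fold ratio (95% exact interval 12.1 to 383), and its log2 fold change ranged from 4.52 without lateral library 2 to 7.83 without lateral library 1. Wnt5a, Wnt2b, Wnt3a and Wnt8b, all called as higher, also stand in the hem marker list. Wnt8b, named after its value was seen, had 117, 30.5 and 22.1 CPM in the medial and 0.213 and 0.0371 CPM in the lateral libraries. Its log2 fold change was 8.70 (SE 1.29, edgeR adjusted p = 0.0305). The lower gene was Wnt7b, a ligand of the developing cortex named here after its value was seen, with a log2 fold change of −1.51 (SE 0.23, edgeR adjusted p = 0.0313). Of the 2 genes for ligand secretion, Porcn, which acylates Wnt proteins, was lower in medial cortex (−0.82, SE 0.16, edgeR adjusted p = 0.0402). The other, Wls, named after its value was seen, went the opposite way without passing (1.42, SE 0.35, edgeR adjusted p = 0.0562). Wls had 62.6, 33.2 and 28.8 CPM in the medial and 16.5 and 14.6 CPM in the lateral libraries.

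Of the Frizzled receptors and Lrp co-receptors, the targets of Rnf43 and Znrf3 and their partners, 1 of 12 tested genes passed. This was Fzd9, with 55.9, 60.1 and 51.5 CPM in the medial and 17.9 and 8.52 CPM in the lateral libraries. The log2 fold change of Fzd9 was 2.07 (SE 0.31, edgeR adjusted p = 0.0305), and 2.71 without lateral library 1. The median of the list was 0.22. Fzd8, named after its value was seen, went the other way without passing (−1.57, SE 0.37, edgeR adjusted p = 0.0521). It had 23.1, 38.6 and 61.7 CPM in the medial and 134 and 111 CPM in the lateral libraries. At an unadjusted edgeR p under 0.05, 4 genes of this list were higher and 1 lower. Among the 10 intracellular transducers 0 passed in edgeR, where 1 had an unadjusted p under 0.05, and 1 passed with DESeq2 as lower in medial cortex. The former was Apc, which encodes a scaffold of the beta-catenin destruction complex and was picked after its value was seen (−0.44, SE 0.12, edgeR adjusted p = 0.0719). The 2 with the highest level were Ctnnb1, which encodes beta-catenin (−0.13, SE 0.13), and the kinase gene Csnk1a1 (−0.05, SE 0.08, and 0.027 with library size alone as scaling).

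Of the 8 Tcf/Lef factors and beta-catenin coactivators, Lef1 (2.04, SE 0.19, edgeR adjusted p = 0.0238) and Tcf7 (1.17, SE 0.22, edgeR adjusted p = 0.0374) were higher in medial cortex, and the median was 0.05. Both are also Wnt targets and stand in the list of feedback and target genes, where 5 of 10 tested genes were higher and 0 lower, with a median of 0.96. The feedback inhibitor Axin2 (1.75, SE 0.15, edgeR adjusted p = 0.0231) and the receptor gene Tnfrsf19 (2.43, SE 0.20, edgeR adjusted p = 0.0231) were among them, as was the target gene Sp5, named after its value was seen, with 7.56, 2.69 and 1.22 CPM in the medial and 0.0608 and 0.0371 CPM in the lateral libraries. The log2 fold change of Axin2 thus lay between those of Znrf3 and Rnf43, the feedback ligases.

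Of the secreted and membrane antagonists, 3 of 10 tested genes were higher and 0 lower, with a median of 0.91. They were Dkk3, a member of the Dickkopf family (3.16, SE 0.44), and the Wnt-binding proteins Wif1 (4.50, SE 0.65) and Frzb (2.08, SE 0.39), with edgeR adjusted p-values of 0.0296, 0.0296 and 0.0369. Frzb had a log2 fold change of 2.68 without lateral library 1. Of 10 heparan sulfate proteoglycans, cell surface proteins that bind R-spondins and Wnts, Sdc2 (0.94, SE 0.18), Sdc4 (1.01, SE 0.19) and Gpc6 (0.48, SE 0.11) were higher and 0 were lower, with a median of 0.48 and edgeR adjusted p-values of 0.0374, 0.0375 and 0.0483. With all libraries thinned to the depth of the smallest, 1 of these calls was left, the edgeR adjusted p being 0.0479 for Sdc2, 0.0611 for Sdc4 and 0.0523 for Gpc6. Without the filter on low counts it was 0.0890 for Gpc6. Gpc2 (−1.03, SE 0.25, edgeR adjusted p = 0.0557) and Sdc3 (−0.91, SE 0.22, edgeR adjusted p = 0.0551) went the other way without passing. Both were named after their values were seen. DESeq2 called 4 proteoglycan genes higher and 2 lower in medial cortex.

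**Figure D5:**
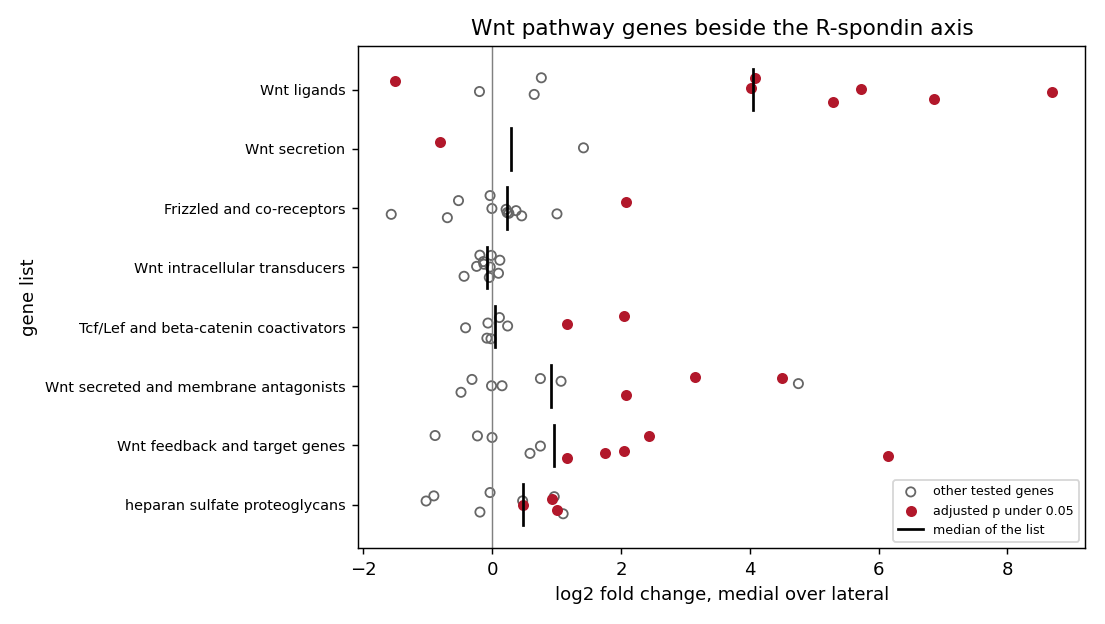
Log2 fold change (medial over lateral) of every tested gene in 8 lists of the Wnt pathway, filled where the edgeR adjusted p was under 0.05, with a bar at the median of each list. The Wnt ligands have a median of 4.04, and the intracellular transducers lie around −0.09 with no filled point. Among the ligands, Wnt2b, Wnt3a, Wnt8b, Wnt9a and Wnt10a passed the filter only through medial libraries.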

How the data were processed

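The authors deposited 1 file of raw read counts per library, with a whole-number count for each of 34590 gene symbols. Per the submitters' processing notes, the build was mm9 and the tools were BWA, STAR and HTSeq. Versions, order and annotation are not given in the sources used here. Reads in 5 HTSeq classes assigned to no gene (23.1% to 28.7% of a file) were left out of library sizes and tests.

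Counts were normalised with TMM and fitted with edgeR 4.0.16 (glmQLFit and glmQLFTest, legacy form off) in R 4.3.3, with no covariate beside region, leaving 3 residual degrees of freedom. Genes were kept by filterByExpr (count 10, total 15), and p-values were adjusted by Benjamini-Hochberg over all 16229 genes kept. SE is the log2 fold change over the root of F. The fit was also run on simulated independent counts. They held no outlying library and no link between samples, so that run does not bear on either feature. Intervals of shares and ratios are exact binomial and cover counting error only.

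The genes and lists were chosen with earlier results of these data known. From each pathway list, up to 4 called genes were named in order of adjusted p, or the 2 of highest mean level where none was called. The 3 nearest patterns used log2 CPM with a prior count of 2. Promoter windows came from RefSeq (GRCm38.p6) and exon lengths from GENCODE M21, neither in the build of the counts. Alternatives covered scaling, DESeq2 1.42.0, filters, thinning to 27406370 reads, leaving out each library and blocks.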

Additional observations from a re-analysis of the deposited data

How the results depend on the processing

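The log2 fold changes of the 6 fitted genes were positive in all 14 alternatives, Rspo3 being at 0.02 without medial library 1. Of all genes, 1577 passed in edgeR. DESeq2 called 3527 (1737 higher and 1790 lower in medial cortex), and without a low-count filter 495 were higher. Leaving out 1 library gave between 0 and 2163 calls, 0 to 1026 higher and 0 to 1137 lower. Among the 8 genes it gave 0 to 5 calls, and among pathway genes 0 to 21 higher and 0 to 7 lower. DESeq2 called 7 pathway genes lower. With library size alone as scaling the log2 fold change of Csnk1a1 was 0.027 and so changed sign.

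A block by the replicate number of the titles left 454 genes higher in medial cortex and 4 pathway genes lower, and 4 of the 8 genes passed. These numbers are not stated to pair the samples, and deviations from the group means correlated at 0.07 and −0.44 for samples of the same number (13807 genes). For the tag in the deposited names, whose meaning is not stated, the correlations were 0.44 and 0.45. With only 2 lateral libraries, their deviations mirror each other, so each medial library correlates with them equally and with opposite sign. The −0.44 by number and the 0.44 by tag, both of medial library 2, are therefore the same value. These correlations cannot decide how the samples pair. A block by that tag gave 5364 calls, 2633 higher and 2731 lower, with 11 pathway genes lower and 5 of the 8 genes called. Medial library 3 by number and medial library 1 by tag have no partner and do not bear on those contrasts, which left 1 residual degree of freedom. For Lgr5 and Lgr6 the depth limits what can be said, since at most 14 reads were counted in any library.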
